A study of Mus musculus with 6 samples.

Results

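The 39 genes of the mouse Hox clusters were described in spheres grown from mammary tumors of FRS2beta knockout mice and of FRS2beta hetero mice. Members were the array probes whose RefSeq accession belongs to a mouse gene named Hoxa, Hoxb, Hoxc or Hoxd with a number, and 43 of 55681 probes met this rule. They covered all 39 such genes of the RefSeq table, of 20660 genes with a named probe, with 1 probe for most genes and 2 probes for some, among them Hoxa9, Hoxa13 and Hoxb3. Total RNA of each sample was labelled with Cy3 and hybridised to a single-colour Agilent array, 3 for the knockout genotype and 3 for the hetero genotype. FRS2beta, encoded by Frs3, is a membrane-linked adaptor protein of fibroblast growth factor receptor signalling. All 6 samples were sphere cultures in DMEM/F12 with B27, epidermal growth factor, basic fibroblast growth factor and heparin, per the labels' protocols. The labels name neither the oncogene that gave the tumors nor the age of the mice, and no wild-type group was analysed here. They also do not say whether the 3 replicates of a genotype came from separate animals, tumors or cultures, so a p-value here sets the genotypes against the spread among these cultures, which may be no more than technical.

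Hox genes encode homeodomain transcription factors that set position along the body axis. They lie in 4 clusters, Hoxa on chromosome 6, Hoxb on chromosome 11, Hoxc on chromosome 15 and Hoxd on chromosome 2, and genes with the same number in different clusters are paralogs. Low-numbered genes act toward the head and high-numbered genes toward the tail, in the order in which they lie in the cluster. Hox proteins bind DNA together with the TALE homeodomain proteins Pbx and Meis, Polycomb and Trithorax proteins keep clusters silent or active, and retinoic acid induces genes at the low-numbered end. In the mouse mammary gland, loss of Hoxa9, Hoxb9 and Hoxd9 together impairs its growth at pregnancy, and a targeted change at Hoxc6 also alters the gland.

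On the knockout arrays the processed signal had a 75th percentile of 465, 487 and 479, against 412, 404 and 416 on the hetero arrays. Levels are given here as scaled log2 signal, which is log2 of the processed signal minus that percentile of the array, and differences as log2 fold changes, knockout minus hetero. Of all probes, 69.6%, 66.7% and 60.5% were well above background on the 3 knockout arrays, against 60.8%, 61.3% and 60.3% on the hetero arrays, so that knockout replicates 1 and 2 stood above the other arrays. Across the 15834 genes tested, arrays of different genotypes correlated at 0.966 to 0.971 and arrays of the same genotype at 0.995 to 0.998. The Frs3 probe gave -7.88, -7.95 and -7.36 on the knockout arrays, none well above background, against -7.30, -4.64 and -6.01 on the hetero arrays, 1 of them well above background. It is therefore no check of the genotype labels.

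Epithelial and macrophage markers moved with genotype. All 10 luminal epithelial markers were well above background on all 6 arrays and higher in knockout, with a median log2 fold change of 3.49, and their summed signal, in units of the array's 75th percentile, ran from 131 to 134 on the knockout arrays against 12 to 12.4 on the hetero arrays. Basal epithelial markers were higher in 6 of 7 tested, at 94.5 to 94.9 on the knockout arrays against 21.3 to 21.4 on the hetero arrays. Fibroblast markers were lower in 7 and higher in 2 of 10, with sums of 1690 to 1750 on the knockout arrays against 2210 to 2440 on the hetero arrays. Their median log2 fold change was -0.53, and over all genes 32.6% were lower and 27.9% higher. Scaling to spike-in probes, described below, raised every log2 fold change by 0.42, so the fibroblast difference depended on the scaling. All 9 tested macrophage markers were lower, with sums of 7.59 to 7.66 on the knockout arrays against 19.8 to 20.2 on the hetero arrays. The part of these shifts in the Hox values below was not tested, and in bulk samples fewer cells of a type and less RNA per cell cannot be told apart.

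Most Hox genes gave signal in these cultures, as did most genes with a named probe. A gene counted as detected on an array when at least 1 of its probes was well above background there, and 28 of 39 Hox genes were detected on all 6 arrays, 6 on some and 5 on none. The count was 33, 32 and 29 on the knockout arrays, against 31, 32 and 30 on the hetero arrays, so the genotypes overlapped, and knockout replicates 1 and 2, with more probes detected in all, stood at or above every hetero array. As shares of Hox genes these were 84.6%, 82.1% and 74.4%, against 79.5%, 82.1% and 76.9%. Of all named genes 80.4%, 78.8% and 74.9% were detected on the knockout arrays, against 74.1%, 74.4% and 73.8% on the hetero arrays. All 11 central genes (paralog groups 5 to 8) were detected on all 6 arrays, as were 9 of 12 anterior genes (groups 1 to 4) and 8 of 16 posterior genes (groups 9 to 13).

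**Figure D1:**
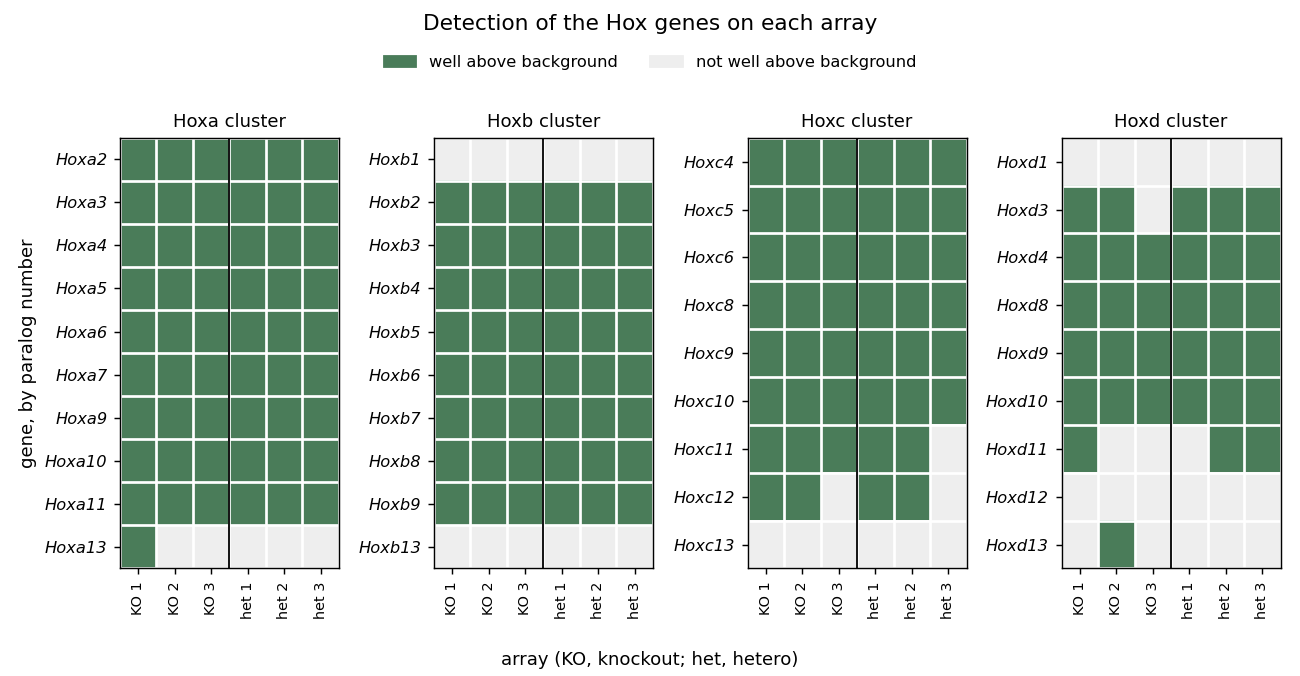
Each tile is a Hox gene named in the text (rows, by paralog number) on an array (columns, knockout left of hetero in each cluster), green where at least 1 probe was well above background. The 5 genes detected on no array are Hoxb1, Hoxb13, Hoxc13, Hoxd1 and Hoxd12, at or next to the ends of the clusters.

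The genes below background lay at the high-numbered ends of the clusters and, in Hoxb and Hoxd, also at the low-numbered end. Of paralog group 1, which acts in the hindbrain, Hoxb1 and Hoxd1 were detected on no array. No gene of group 13 was detected on more than 1 array: Hoxa13 and Hoxd13, which pattern digits and the urogenital tract, were each detected on 1 knockout array, while Hoxb13, known from the prostate, and Hoxc13, known from hair and nails, were detected on none. Hoxd12 was detected on none. For these genes the array gives no more than a bound, and they were not tested.

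A gene was tested when a probe was well above background on at least 3 of 6 arrays, and 32 Hox genes passed, none of them through a single genotype alone. Of these, 19 changed between genotypes at an adjusted p under 0.05 (limma, Benjamini-Hochberg over all 15834 genes), 6 higher and 13 lower in knockout. That is 59.4% of the Hox genes tested, against 60.4% of all genes tested. Higher calls made up 18.8% of the Hox genes against 27.9% of all genes, and lower calls 40.6% against 32.6%. Their median log2 fold change was -0.18, beside -0.03 over all genes, and their median size without sign was 0.32, beside 0.22. Values of the 2 genotypes did not overlap in 21 of the 32, while 68.9% of all genes did not overlap. Only Hoxd9 combined a call with a fold of at least 2, a rule that 10.1% of all genes met.

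The split into higher and lower depended on the scaling. With 7 spike-in probes in place of the 75th percentile, every log2 fold change rose by 0.42, the median of all genes moved to 0.39, and 19 Hox genes were called higher and 2 lower (Hoxa7 and Hoxd9), against 72.5% higher and 7.95% lower of all genes. Directions below are thus relative to the bulk of the array's signal. On the spike-in scale none of the other lower calls held, and Hoxa9 (-0.07) and Hoxc4 (-0.06) alone of them stayed below 0. Of these genes, Hoxa10 (0.16, adjusted p = 0.0133), Hoxb6 (0.19, 0.0007) and Hoxb7 (0.30, 0.000232) were called higher there. So were Hoxc6 (0.135, 0.00379) and Hoxc9 (0.30, 0.000292).

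**Figure D2:**
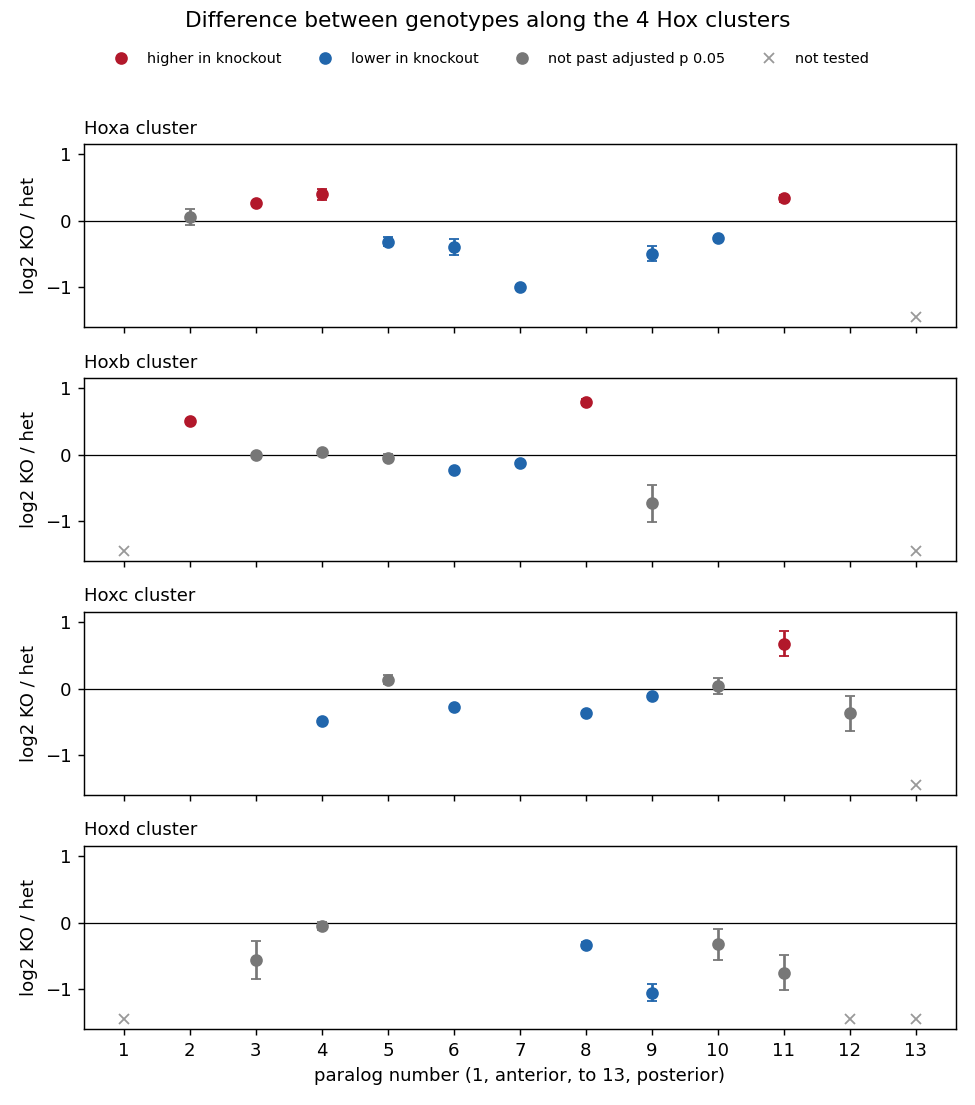
Log2 fold change, knockout over hetero (y axis), of each Hox gene named in the text by paralog number (x axis), 1 panel for each cluster, with bars of 1 standard error and crosses at the foot of the panel for genes not tested. On the 75th percentile scale, central genes of Hoxa are lower in knockout, with Hoxa7 at -0.99, all 6 tested Hoxd genes lie below 0, and Hoxb8 stands highest at 0.79. On the spike-in scale every value is higher by 0.42, and lower calls are Hoxa7 and Hoxd9 alone.

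Hoxd9, one of the paralogs needed for mammary growth in the mouse, had the largest difference. Its scaled log2 signal was -2.97, -2.65 and -2.78 on the knockout arrays, against -1.66, -1.62 and -1.96 on the hetero arrays. Every knockout array lay below every hetero array, with a log2 fold change of -1.05 (SE 0.12, n = 3 per genotype), or 2.07-fold lower (adjusted p = 0.00102). Hoxa7, which helps to pattern the vertebrae, read 0.65, 0.67 and 0.71 on the knockout arrays, against 1.66, 1.71 and 1.63 on the hetero arrays. The genotypes stood far apart beside their spread, and the log2 fold change was -0.99 (SE 0.03, adjusted p = 5.49e-06), 1.99-fold lower. Hoxb8, known for holding myeloid progenitors in an undifferentiated state, read -0.35, -0.34 and -0.23 on the knockout arrays, against -1.12, -1.11 and -1.04 on the hetero arrays. It was higher on every knockout array, by 0.79 on the log2 scale (SE 0.04, 1.72-fold, adjusted p = 5.65e-05).

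Promoters are shown for these 3 genes, which had the largest changes among called Hox genes with a single entry in the RefSeq promoter table on GRCm38.p6. Each is the 250 bases before the annotated start, 5′ to 3′ on the gene's strand. They lie at chr2:74697513-74697762 on the plus strand for Hoxd9, chr6:52218574-52218823 on the minus strand for Hoxa7 and chr11:96281655-96281904 on the plus strand for Hoxb8. Capitals mark matches to the motifs searched.
Hoxd9: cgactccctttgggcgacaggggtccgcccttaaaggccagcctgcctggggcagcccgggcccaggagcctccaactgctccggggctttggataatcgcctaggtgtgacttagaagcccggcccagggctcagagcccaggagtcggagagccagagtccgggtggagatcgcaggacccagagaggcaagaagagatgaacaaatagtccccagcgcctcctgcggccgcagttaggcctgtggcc
Hoxa7: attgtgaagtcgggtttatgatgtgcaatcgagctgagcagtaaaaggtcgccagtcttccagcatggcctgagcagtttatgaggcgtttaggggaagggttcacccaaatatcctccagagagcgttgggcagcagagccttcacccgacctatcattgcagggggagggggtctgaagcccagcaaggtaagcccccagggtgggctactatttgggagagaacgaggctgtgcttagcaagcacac
Hoxb8: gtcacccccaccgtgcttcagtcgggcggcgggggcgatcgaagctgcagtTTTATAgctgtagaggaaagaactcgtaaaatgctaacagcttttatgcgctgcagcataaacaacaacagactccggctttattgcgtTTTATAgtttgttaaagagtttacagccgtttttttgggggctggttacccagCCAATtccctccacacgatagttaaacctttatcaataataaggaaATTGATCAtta

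Motifs were searched on both strands, allowing overlaps, in windows of this length. The composite site of Hox and Pbx proteins was written as TGATNNAT, the retinoid receptor half-site as AGGTCA, the TATA box as TATAAA and the CCAAT box by its name. The Hoxb8 window held 1 composite site, starting 11 bases before the gene's start, 1 CCAAT box and 2 TATA boxes, while the Hoxd9 and Hoxa7 windows held none of the motifs searched. The composite site occurred in 7.68% of 32851 promoters of the table and in 3 of the 20 Hox genes with a single entry. The CCAAT box occurred in 33.8% of the table and in 13 of those 20 Hox genes, the TATA box in 12.4% and 3, and the half-site in 14% and 6. Hox windows were rich in CG pairs, with a median of 12.5 (3 to 35) beside 6 over the table, and the Hoxd9, Hoxa7 and Hoxb8 windows held 13, 7 and 12. These matches describe the sequence and show nothing about binding.

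On the 75th percentile scale, called Hoxa genes were higher at Hoxa3 and Hoxa4, lower from Hoxa5 to Hoxa10 and higher again at Hoxa11. Of its 10 tested genes, 3 were higher and 5 lower in knockout, with a median of -0.10, and 9 did not overlap between genotypes, beside 60.4% called and 68.9% not overlapping of all genes. At the low-numbered end, Hoxa3, needed for the thymus and parathyroid glands, read 0.37, 0.34 and 0.36 on the knockout arrays, against 0.09, 0.08 and 0.08 on the hetero arrays. These arrays agreed closely within a genotype, and the log2 fold change was 0.27 (SE 0.02, adjusted p = 0.000147). Hoxa4, which patterns cervical vertebrae, had -2.09, -2.03 and -2.01 on the knockout arrays, against -2.29, -2.59 and -2.45 on the hetero arrays. It was higher on every knockout array, by 0.40 (SE 0.08, adjusted p = 0.00753). Hoxa2, which acts in the hindbrain and pharyngeal arches, did not pass the test. It was at -2.45, -2.41 and -2.74 on the knockout arrays, against -2.70, -2.40 and -2.69 on the hetero arrays, and the genotypes overlapped (0.06, SE 0.12, adjusted p = 0.690).

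From Hoxa5 to Hoxa10 every gene fell in knockout on the 75th percentile scale. On the spike-in scale Hoxa5 and Hoxa6 turned slightly positive without a call, at 0.11 and 0.02, and Hoxa9 was at -0.07 (adjusted p = 0.543). Hoxa10 was called higher there, at 0.16 (adjusted p = 0.0133). Hoxa5, needed for lung development and linked to epithelial fate in human breast cells, had -1.81, -1.74 and -1.92 on the knockout arrays, against -1.43, -1.52 and -1.58 on the hetero arrays. No value overlapped, and the log2 fold change was -0.31 (SE 0.06, adjusted p = 0.00755). Hoxa6 gave -3.03, -3.14 and -3.24 on the knockout arrays, against -2.68, -2.99 and -2.55 on the hetero arrays. Its hetero replicate 2 came close to the knockout arrays, and its log2 fold change of -0.39 (SE 0.13, adjusted p = 0.0404) passed narrowly. It missed the threshold under 9 of 18 alternatives, among them spike-in scaling and leaving out any knockout array or hetero replicate 1 or 3. Hoxa9, which maintains blood stem cells, had -2.39, -2.60 and -2.65 on the knockout arrays, against -2.19, -2.10 and -1.88 on the hetero arrays. All knockout values were the lower ones, with a log2 fold change of -0.49 (SE 0.11, adjusted p = 0.0108). Hoxa10, required for uterine decidualisation, read -1.88, -1.85 and -1.89 on the knockout arrays, against -1.57, -1.69 and -1.57 on the hetero arrays (-0.26, SE 0.04, adjusted p = 0.00297), again with no overlap.

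Hoxa11, which shapes the forearm and uterus, turned the other way. Its probe was spotted 10 times on each array, and the mean of the spots was used. It read -2.96, -2.97 and -2.93 on the knockout arrays, against -3.29, -3.19 and -3.39 on the hetero arrays. The knockout values were higher without overlap, by 0.34 (SE 0.05, adjusted p = 0.00307). With the normexp background correction in place of the scanner's own, its log2 fold change was 0.04 and the call was lost.

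In the Hoxb cluster 2 of 8 tested genes were higher and 2 lower in knockout, with a median of -0.02. These shares of 25% each stood beside 27.9% higher and 32.6% lower of all genes. Beside Hoxb8, the gene that rose was Hoxb2, which acts in the hindbrain, at 1.79, 1.79 and 1.72 on the knockout arrays, against 1.28, 1.27 and 1.21 on the hetero arrays. The genotypes stood apart, and the log2 fold change was 0.51 (SE 0.03, adjusted p = 8.26e-05). Hoxb6 fell, with 1.5, 1.5 and 1.48 on the knockout arrays, against 1.70, 1.75 and 1.73 on the hetero arrays (-0.23, SE 0.02, adjusted p = 0.000473). Hoxb7, studied in human breast cancer, read 2.69, 2.69 and 2.65 on the knockout arrays, against 2.80, 2.83 and 2.76 on the hetero arrays. This was a small change of -0.12 (SE 0.03, adjusted p = 0.0139), without overlap, and the call was lost with quantile scaling (adjusted p = 0.0785), median scaling (0.276) and normexp (0.262). Hoxb7 and Hoxb8 are neighbours, so adjacent genes moved in opposite directions on the 75th percentile scale but not on the spike-in scale.

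The other 4 tested Hoxb genes did not pass. Hoxb3 and Hoxb4 differed little, and Hoxb4 is known for expanding blood stem cells. Hoxb3 read 0.06, 0.06 and 0.02 on the knockout arrays, against 0.09, 0.05 and 0.00 on the hetero arrays (0.00, SE 0.03, adjusted p = 0.987), with overlap. Hoxb4 read 2.45, 2.43 and 2.49 on the knockout arrays, against 2.42, 2.41 and 2.39 on the hetero arrays (0.05, SE 0.02, adjusted p = 0.123), with no overlap but a narrow gap. Hoxb5, which helps to place the forelimb, gave -0.56, -0.45 and -0.60 on the knockout arrays, against -0.46, -0.53 and -0.50 on the hetero arrays, and the genotypes overlapped (-0.04, SE 0.05, adjusted p = 0.519). Hoxb9, a paralog of the mammary trio, had -3.67, -3.94 and -3.80 on the knockout arrays, against -3.69, -2.76 and -2.79 on the hetero arrays. Hetero replicate 1 lay among the knockout arrays, and the difference of -0.73 (SE 0.27) had an adjusted p of 0.0675. Without that replicate it was -1.03 with an adjusted p of 0.0011, while without hetero replicate 2 or 3 it was -0.57 or -0.58 with adjusted p of 0.168 and 0.170.

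**Figure D3:**
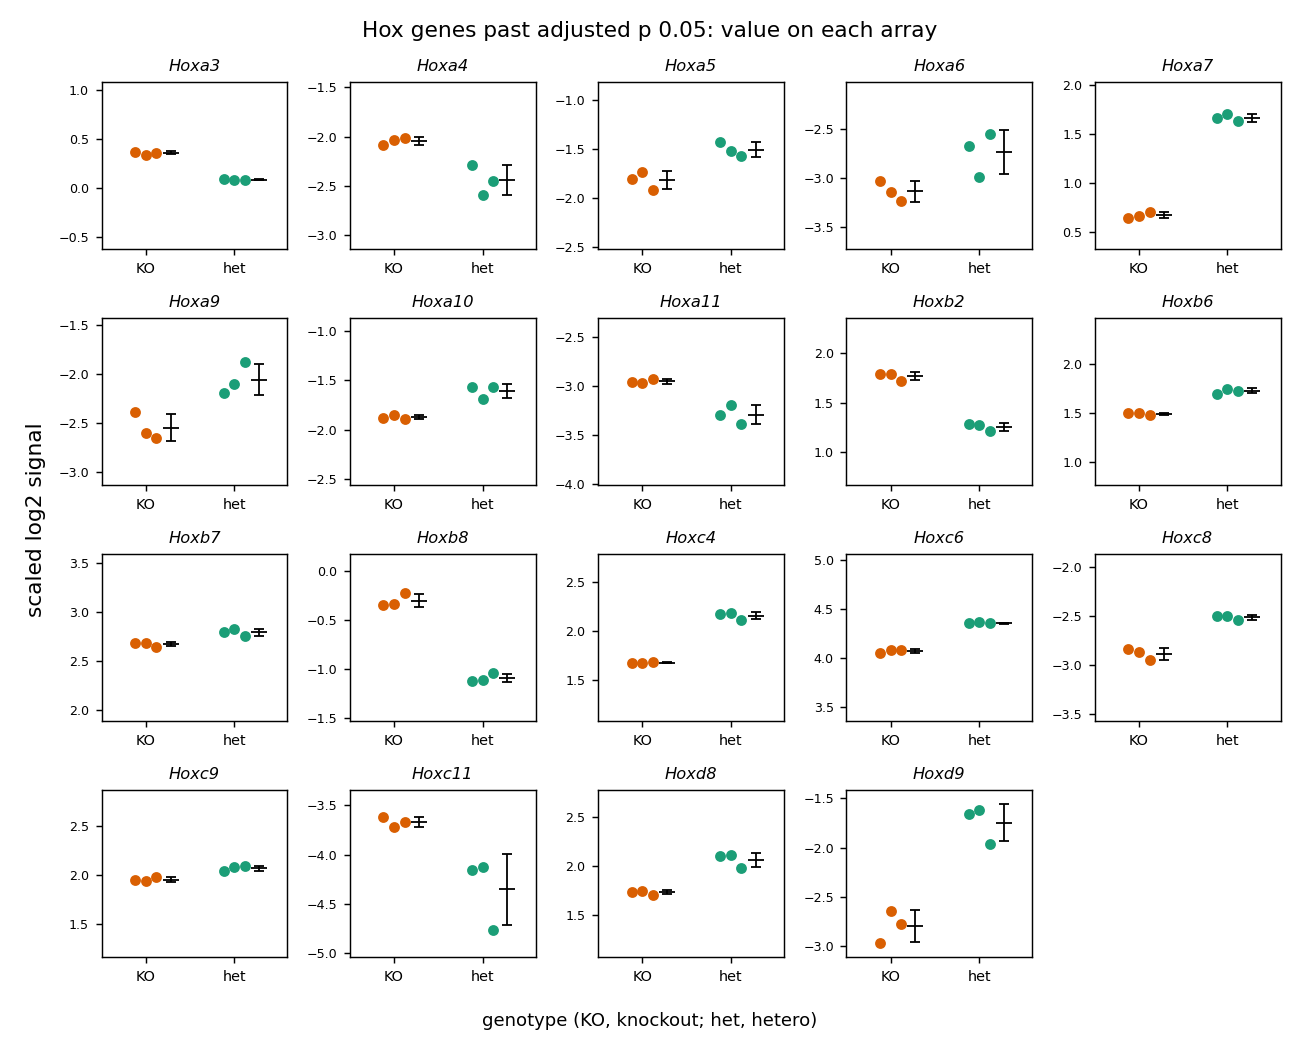
Scaled log2 signal (y axis, the same span in every panel) of the 19 Hox genes past an adjusted p of 0.05, 1 point for each array, knockout left of hetero, with the mean and 1 standard deviation beside the points (n = 3 per genotype). The genotypes do not overlap in any panel, and for Hoxa6 and Hoxc11 a single hetero array lies apart from the other hetero arrays. Other scaling shifts the genotypes against each other, and on the spike-in scale the lower calls are Hoxa7 and Hoxd9 alone.

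In the Hoxc cluster 4 of 8 tested genes were lower and 1 higher in knockout, with a median of -0.20. Over all genes 32.6% were lower and 27.9% higher. Hoxc4 had 1.67, 1.67 and 1.68 on the knockout arrays, against 2.17, 2.18 and 2.11 on the hetero arrays. It was lower on every knockout array, by -0.48 on the log2 scale (SE 0.03, adjusted p = 5.20e-05). Hoxc6, the gene whose targeting alters the mouse mammary gland, read 4.05, 4.08 and 4.08 on the knockout arrays, against 4.35, 4.36 and 4.35 on the hetero arrays. Its arrays agreed within a genotype to a few hundredths, and the log2 fold change was -0.28 (SE 0.02, adjusted p = 0.000147). Hoxc8, which patterns thoracic vertebrae, read -2.84, -2.87 and -2.95 on the knockout arrays, against -2.50, -2.50 and -2.54 on the hetero arrays (-0.37, SE 0.04, adjusted p = 0.00042). Hoxc9, which gives motor neurons their thoracic identity, read 1.95, 1.94 and 1.98 on the knockout arrays, against 2.04, 2.08 and 2.09 on the hetero arrays. That difference was small, at -0.11 (SE 0.03, adjusted p = 0.0123), with no overlap.

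Hoxc11, which acts in the hindlimb, was the Hoxc gene that rose. It read -3.62, -3.72 and -3.67 on the knockout arrays, all well above background, against -4.16, -4.13 and -4.77 on the hetero arrays, where replicate 3 was not well above background. The genotypes did not overlap, and the log2 fold change was 0.68 (SE 0.18, adjusted p = 0.023). It was 0.05 with the normexp correction, and leaving out any knockout array ended the call. Hoxc5, Hoxc10 and Hoxc12 did not pass, and the genotypes overlapped for each. Hoxc5 had -0.98, -1.06 and -1.17 on the knockout arrays, against -1.15, -1.33 and -1.16 on the hetero arrays (0.14, SE 0.07, adjusted p = 0.140). Hoxc10, a lumbar motor neuron gene, had -1.50, -1.86 and -1.61 on the knockout arrays, against -1.82, -1.75 and -1.53 on the hetero arrays (0.04, SE 0.12, adjusted p = 0.783). Hoxc12 was detected on 2 arrays of each genotype, at -4.41, -4.70 and -5.31 on the knockout arrays, against -4.15, -4.54 and -4.63 on the hetero arrays (-0.37, SE 0.26, adjusted p = 0.279).

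All 6 tested Hoxd genes had negative log2 fold changes, with a median of -0.45, but 2 passed, Hoxd9 and its neighbour Hoxd8. That is 33.3% called, beside 60.4% of all genes. On the spike-in scale Hoxd4, Hoxd8 and Hoxd10 turned positive, at 0.37, 0.09 and 0.10. Hoxd8 read 1.74, 1.75 and 1.71 on the knockout arrays, against 2.10, 2.11 and 1.98 on the hetero arrays. No value overlapped, and the log2 fold change was -0.33 (SE 0.04, adjusted p = 0.00139). Hoxd3 and Hoxd4 pattern the uppermost neck vertebrae. Hoxd3 had -4.04, -4.50 and -5.05 on the knockout arrays, the last not well above background, against -3.77, -4.26 and -3.89 on the hetero arrays (-0.56, SE 0.28, adjusted p = 0.144). Hoxd4 was at -0.81, -0.69 and -0.89 on the knockout arrays, against -0.71, -0.75 and -0.79 on the hetero arrays (-0.05, SE 0.06, adjusted p = 0.483). Both overlapped between genotypes.

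Hoxd10 and Hoxd11, which act in the limbs, lay near background and varied more between arrays. Hoxd10 had -3.73, -4.23 and -4.44 on the knockout arrays, against -3.65, -3.66 and -4.14 on the hetero arrays (-0.32, SE 0.23, adjusted p = 0.284). Hoxd11, detected on knockout replicate 1 and hetero replicates 2 and 3, had -4.96, -5.69 and -5.61 on the knockout arrays, against -4.96, -4.32 and -4.75 on the hetero arrays (-0.75, SE 0.26, adjusted p = 0.053). The genotypes overlapped for both, Hoxd11 by the lone values of -4.96. Without knockout replicate 1, Hoxd11 was at -0.98 with an adjusted p of 0.0175, and Hoxd3 at -0.81 with an adjusted p of 0.0452. Without knockout replicate 3 they were at -0.65 (adjusted p = 0.140) and -0.30 (adjusted p = 0.298).

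Read across the clusters by paralog number, lower calls on the 75th percentile scale lay mostly in the middle. Of 11 central genes 8 were lower and 1 higher, with a median of -0.28, beside 32.6% lower and 27.9% higher of all genes. Of 10 tested anterior genes 1 was lower and 3 higher (median 0.06), and of 11 tested posterior genes 4 were lower and 2 higher (median -0.32). The difference between these zones was not tested. On the spike-in scale the central genes other than Hoxa7 were not lower, and of those lower above, Hoxb6, Hoxb7 and Hoxc6 were called higher. On the 75th percentile scale all 3 genes of group 6 and both of group 7 were lower, while group 8 was split, with Hoxc8 and Hoxd8 lower and Hoxb8 higher. In group 9, which holds the mammary trio Hoxa9, Hoxb9 and Hoxd9 as well as Hoxc9, all 4 values were negative. Hoxa9, Hoxc9 and Hoxd9 passed, with Hoxd9 lowest, and Hoxb9 of the trio was short of the threshold. Group 11 held 2 genes that rose, Hoxa11 and Hoxc11, with Hoxd11 at -0.75 not passing.

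Of 28 pairs of tested neighbours along the clusters, 9 moved in the same direction with both called, 3 moved in opposite directions and 16 had at least 1 gene not called. With 13 Hox genes called lower and 6 higher, many pairs would share a direction by that split alone. Neighbours elsewhere in the genome were not counted, and whether neighbours move together was not tested. The opposed Hox pairs were Hoxa4 with Hoxa5, Hoxa10 with Hoxa11, and Hoxb7 with Hoxb8. On the spike-in scale none of them was opposed, with Hoxa4 at 0.82 and Hoxa5 at 0.11, Hoxa10 at 0.16 and Hoxa11 at 0.76, and Hoxb7 at 0.30 and Hoxb8 at 1.2. Annotated spans of Hoxa3 overlap those of Hoxa4, Hoxa5 and Hoxa6, and likewise Hoxb3 with Hoxb4, Hoxd3 with Hoxd4 and Hoxd10 with Hoxd11, so that signal of these genes may stem from shared transcripts. Probe positions were not used here.

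Where a gene had 2 tested probes, they were compared. Of 34 tested Hox probes, 19 passed when adjusted over all probes. Of all tested probes, which include many without a gene name, 47.0% passed, so the 2 sets are unlike. By gene the shares were 59.4% of the Hox genes and 60.4% of all genes. The probes of Hoxa9 were alike, at -0.49 and -0.53, though the dimmer one had an adjusted p of 0.0559. The probes of Hoxb3, a gene active in the hindbrain, disagreed. The one used above showed no difference, while the other read -0.49, -0.46 and -0.47 on the knockout arrays, against -0.76, -0.77 and -1.09 on the hetero arrays. There the knockout values were higher without overlap, by 0.40 (SE 0.10, adjusted p = 0.0218). With the mean of both probes Hoxb3 was at 0.20 with an adjusted p of 0.0352, so its direction is not settled by these arrays.

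**Figure D4:**
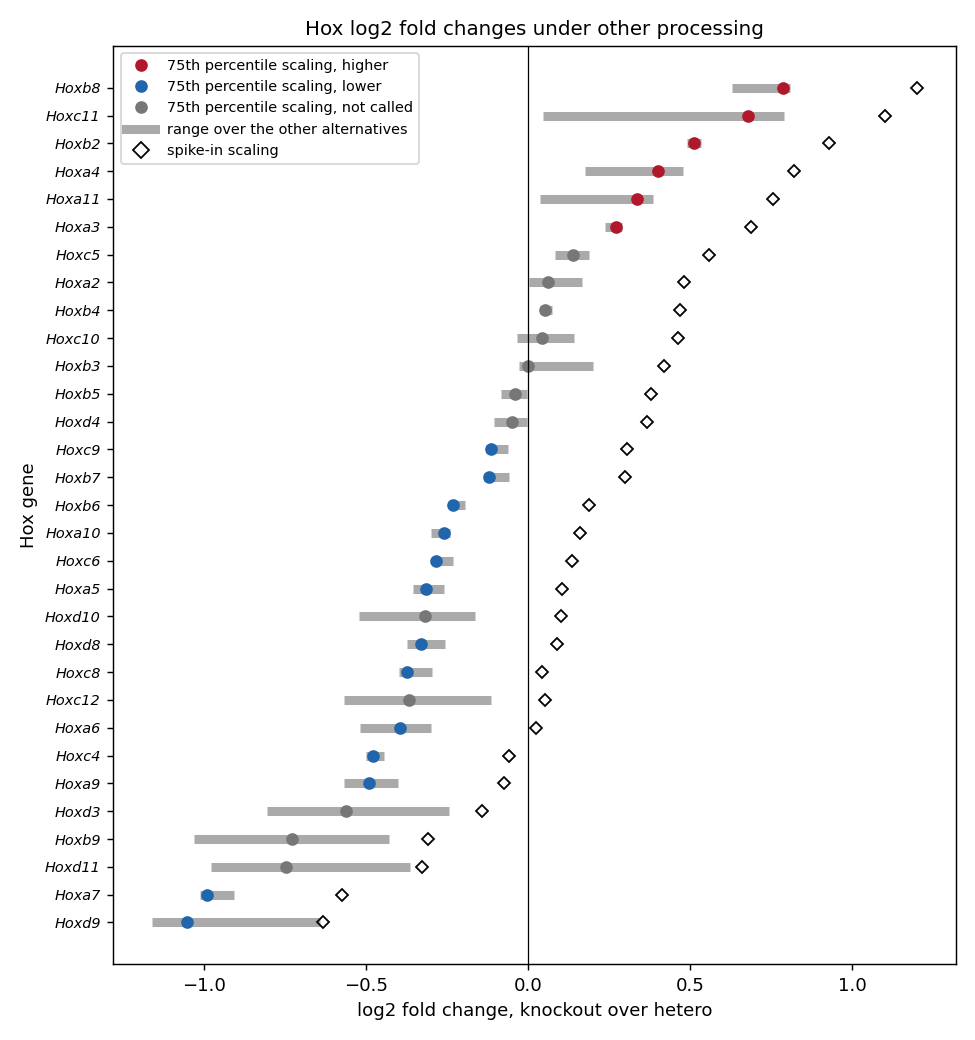
Log2 fold change, knockout over hetero (x axis), of the tested Hox genes named in the text (rows) on the 75th percentile scale (filled points), its range over the alternatives other than spike-in scaling (grey bars) and its value with spike-in scaling (diamonds). Among genes that kept their call in every setting, Hoxa7 and Hoxd9 lie below 0 and Hoxb8, Hoxb2, Hoxa4 and Hoxa3 above 0. Some other genes also keep their sign throughout, and 13 genes with values below 0 turn positive with spike-in scaling.

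Across 18 alternative settings, Hoxa3, Hoxa4, Hoxa7, Hoxb2, Hoxb8 and Hoxd9 kept their call and direction in every one. Outside spike-in scaling, the log2 fold change of Hoxa7 ranged from -1.01 to -0.91 over them. Over the same settings Hoxd9 ranged from -1.16 to -0.64, Hoxb8 from 0.63 to 0.81, Hoxb2 from 0.49 to 0.53, Hoxa3 from 0.24 to 0.29 and Hoxa4 from 0.18 to 0.48. With quantile scaling 8 Hox genes were higher and 13 lower, beside 31.9% higher and 28.2% lower of all genes. With normexp 4 were higher and 15 lower, beside 26.5% higher and 37.0% lower of all genes.

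Hox proteins work with partners, and on the 75th percentile scale more of these fell than rose. Of 11 TALE homeobox genes 6 were lower and 4 higher in knockout, with a median of -0.34, and over all genes lower calls (32.6%) also outnumbered higher ones (27.9%). The Hox cofactor genes Meis1, Meis3 and Pknox1 fell by similar amounts. Meis1 read 2.55, 2.59 and 2.59 on the knockout arrays, against 2.93, 2.94 and 2.87 on the hetero arrays (-0.34, adjusted p = 0.000252). Meis3 was at -0.37 (adjusted p = 7.30e-05) and Pknox1 at -0.34 (adjusted p = 0.000125). Tgif1, a TALE repressor of SMAD signalling, rose by 0.32 (adjusted p = 0.000218). With spike-in scaling 6 of the 11 were higher and none lower, beside 72.5% higher and 7.95% lower of all genes.

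Polycomb genes, which hold silent Hox genes in repressed chromatin, were split, with 11 higher, 9 lower and 9 not called of 29 tested (median 0.06). Phc2, a subunit of the canonical Polycomb complex PRC1, rose by 0.42 (adjusted p = 6.39e-05), while Cbx6, a chromobox subunit of the same complex, was at -0.56 (adjusted p = 4.50e-05). Phf19, an accessory subunit of PRC2, was at -0.39 (adjusted p = 9.57e-05), and Ezh1, one of its methyltransferases, at -0.22 (adjusted p = 0.00058). Of 19 tested genes in a list of Trithorax group, histone demethylase and other chromatin genes, 3 were higher, 4 lower and 12 not called (median 0.03). Dot1l, a histone methyltransferase, rose by 0.73 (adjusted p = 0.0001), and Set, a histone chaperone, by 0.23 (adjusted p = 0.00115). Men1, whose product menin brings MLL complexes to Hox genes, was at -0.44 (adjusted p = 0.000288), and Psip1, which tethers menin to chromatin, at -0.14 (adjusted p = 0.0107). With spike-in scaling 26 Polycomb genes were higher and 1 lower, and 18 of the Trithorax list were higher and none lower, beside 72.5% higher and 7.95% lower of all genes. On the 75th percentile scale the shares over all genes were 27.9% higher and 32.6% lower.

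Some retinoic acid genes moved further than any tested Hox gene. Of 19 tested, 6 were higher, 7 lower and 6 not called (median -0.02), beside 27.9% higher and 32.6% lower of all genes. Aldh1a3, an enzyme that makes retinoic acid, read 1.30, 1.34 and 1.36 on the knockout arrays, against -2.80, -2.77 and -3.00 on the hetero arrays. The genotypes stood 18.3-fold apart, with knockout higher (log2 fold change 4.19, adjusted p = 6.49e-07). Aldh1a2, which makes the same product, went the other way, with -1.11, -0.94 and -1.06 on the knockout arrays, against 1.22, 1.17 and 1.19 on the hetero arrays (-2.23, adjusted p = 1.93e-06). Cyp26a1, which degrades retinoic acid, was higher by 1.96 (adjusted p = 5.89e-06), and Rbp4, the retinol carrier, was at -1.48 (adjusted p = 8.95e-07). With spike-in scaling 15 of the 19 were higher and 2 lower, beside 72.5% higher and 7.95% lower of all genes.

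**Figure D5:**
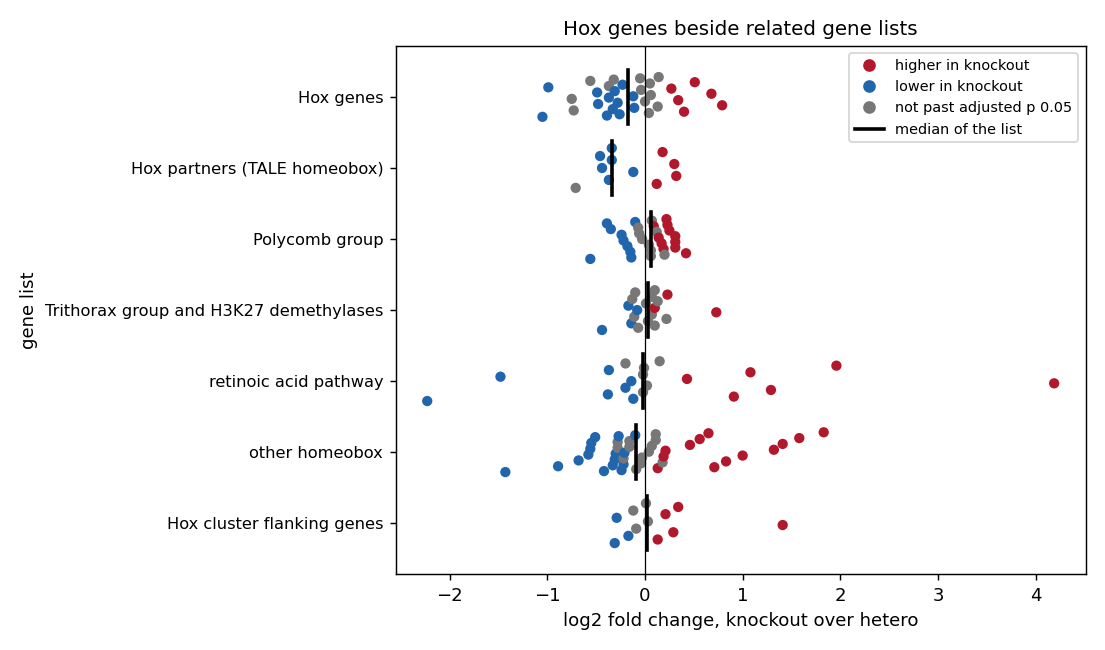
Log2 fold change, knockout over hetero (x axis), of each tested gene in the Hox clusters and in 6 related lists (rows), with the median of each list as a black line and points spread vertically for legibility. Hox genes lie between -1.05 and 0.79, while retinoic acid genes reach -2.23 and 4.19. On the spike-in scale every point lies 0.42 further right.

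Genes around the clusters moved in both directions. Of 12 tested genes flanking them, 5 were higher, 3 lower and 4 not called (median 0.02), beside 27.9% higher and 32.6% lower of all genes. Skap1, an adaptor of T cells beside Hoxb, was higher by 1.41 (adjusted p = 0.000149), and Lnpk, an endoplasmic reticulum protein beside Hoxd, by 0.34 (adjusted p = 0.000363). Beside Hoxa, Tax1bp1, an autophagy receptor, was higher by 0.21 (adjusted p = 0.00115), and Hibadh, an enzyme of valine breakdown, was at -0.31 (adjusted p = 0.000356). Of the noncoding RNAs of the clusters 3 could be tested. Hoxd3os1 read -2.75, -2.80 and -2.89 on the knockout arrays, against -2.22, -2.27 and -2.45 on the hetero arrays, lower without overlap (-0.50, adjusted p = 0.00247). Hoxa11os showed no difference that passed (-0.02, adjusted p = 0.800), and Gm53 was well above background on all 3 knockout arrays and no hetero array, at least 1.05-fold higher in knockout. Gm53 entered the test through its knockout arrays alone, so no call is read from it, and with normexp it was not called higher. That bound sets the knockout mean against the lowest signal well above background on the hetero arrays.

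Of 13 upstream or linked homeobox genes 4 could be tested. Meox1, which acts in the somites, was higher by 0.61 (adjusted p = 8.95e-06), its paralog Meox2 was at -0.55 (adjusted p = 0.000116), and Gbx1 was higher by 0.82 (adjusted p = 0.0065). Cdx1, an inducer of Hox genes in the embryo, did not pass (0.25, adjusted p = 0.0926). Among 42 tested homeobox genes outside these families 13 were higher, 16 lower and 13 not called (median -0.10). Over all genes 27.9% were higher and 32.6% lower. The higher ones include Dlx5, well above background on all 3 knockout arrays and no hetero array, so the filter fixed its direction. The largest named rises were Msx1, a mammary bud gene, by 1.83 (adjusted p = 7.91e-07), and the Iroquois genes Irx3 by 1.41 (adjusted p = 5.05e-06), Irx1 by 1.32 (adjusted p = 9.82e-07) and Irx2 by 1.0 (adjusted p = 8.43e-06). With spike-in scaling 25 of these 42 were higher and 6 lower, beside 72.5% higher and 7.95% lower of all genes.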

How the data were processed

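RNA of 3 knockout and 3 hetero sphere samples was hybridised to single-colour Agilent arrays and, per the submitters' processing notes, read with Agilent Feature Extraction (version 10.7.3.1). The deposited scanner files hold spot intensity on a linear scale with background already subtracted, per the file headers. Each array held 62976 spots. Control spots (3671) and 102 to 129 outlier spots per array were left out, no spot was saturated, and spots of a probe were averaged on the log2 scale. A probe on several spots counted as above background when most of its spots were. The authors' deposited value table (46598 probes) equalled this intensity divided by 1 constant per array within 1%. Probes were named through RefSeq accessions with a table on GRCm38.p6, used for names and order (27235 probes, 20660 genes), since the array header names mm9. Promoters came from RefSeq on GRCm38.p6, where 22 of 39 Hox genes had an entry.

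Log2 intensity minus each array's 75th percentile was fitted with limma 3.58.1 in R 4.3.3, without covariates. A gene was its brightest probe well above background on at least 3 of 6 arrays, and p-values were adjusted over 15834 genes by Benjamini-Hochberg at 0.05. The fit was tested on simulated data. Hox genes tested were named, except for a result not reported here, with up to 4 members of each related list by smallest p. The members and lists were chosen with earlier results of these data known. The number of arrays limits the precision. All arrays shared 1 slide and scan, and each slide column held a single genotype, so column and genotype cannot be told apart. Same-numbered replicates did not deviate together.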

Additional observations from a re-analysis of the deposited data

How the results depend on the processing

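The called Hox genes Hoxa3, Hoxa4, Hoxa7, Hoxb2, Hoxb8 and Hoxd9 kept call and direction under all 18 alternatives of the fit. With spike-in scaling 19 Hox genes were higher and 2 lower, and values below 0 turned positive for Hoxa5 (0.11), Hoxa6 (0.0241), Hoxa10 (0.16), Hoxb5 (0.38), Hoxb6 (0.19), Hoxb7 (0.30), Hoxc6 (0.13), Hoxc8 (0.0439), Hoxc9 (0.30), Hoxc12 (0.051), Hoxd4 (0.37), Hoxd8 (0.0882) and Hoxd10 (0.10). The spike-in probes differed by -0.20 on raw log2 intensity, knockout minus hetero, while the 75th percentile was higher on the knockout arrays, and both add to the shift. With a fold of at least 2 beside the adjusted p, 1 Hox gene was called, 0 higher and 1 lower, since the rule itself is stricter. Genes near 0 changed sign: Hoxb3 with normexp (-0.0271), with the deposited value table (-0.00252) and between -0.0236 and 0.0221 without single arrays, and Hoxc10 with normexp (-0.0337) and between -0.0342 and 0.143 without single arrays. The cause was not tested. Other counts of higher and lower Hox genes were 8 and 13 with quantile scaling, 4 and 15 with normexp, 7 and 12 with no filter, 5 and 13 with detection on all 6 arrays, and 5 to 6 and 12 to 14 with single arrays left out. Normexp ended the calls of Hoxa11, Hoxb7, Hoxc9 and Hoxc11, median scaling those of Hoxb7 and Hoxc9, and quantile scaling that of Hoxb7. Normexp also added 4 calls, among them Hoxb9 (-0.43, adjusted p = 0.0103), Hoxc12 (-0.26, 0.00561) and Hoxd3 (-0.24, 0.0248), all lower. Hoxb9 was also called lower with median scaling (adjusted p = 0.0484) and with a variance trend on intensity in the fit (0.0258).

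The replicate numbers are shared by the genotypes, but same-numbered arrays did not deviate together, with correlations of -0.115, -0.0174 and -0.00554. With the replicate number as a block (replicate block), 18 Hox genes were called, 7 higher and 11 lower, and Hoxa6 (adjusted p = 0.0759) and Hoxa9 (0.0514) missed the threshold. Normexp used the median spot signal, since no mean signal is in the columns used here, and naming probes by the array's own gene names was not run. Dim genes such as Hoxc11, Hoxc12, Hoxd3 and Hoxd11 are limited by their small signal over background.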

Other observations

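Cell type markers other than those above moved less or in both directions. Of 7 endothelial markers 2 were higher (Vwf and Emcn) and 4 lower in knockout. Among the lower ones were the tight junction gene Cldn5 at -0.38 (adjusted p = 0.000276), Kdr, the main receptor of vascular endothelial growth factor, at -0.43 (adjusted p = 0.000346) and the angiopoietin receptor gene Tek at -0.54 (adjusted p = 0.000782), while Vwf, the von Willebrand factor gene, was higher by 0.26 (adjusted p = 0.00165). Of 5 tested hematopoietic progenitor markers, a group in which several Hox genes are known to act, 4 were lower and 1 higher (median -0.49), with Cd34 at -0.62 (adjusted p = 1.71e-05), Kit at -0.49 (adjusted p = 0.000115) and Gata2 higher by 1.03 (adjusted p = 0.00574). Cd34 also marks fibroblasts and endothelium, and Meis1 stands in both this list and that of the Hox partners.

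Pericyte and smooth muscle markers were higher in 4 of 5, with Cspg4, a pericyte proteoglycan, rising by 1.74 (adjusted p = 5.81e-07). Skeletal muscle markers were higher in 4 of 5, among them the alpha-actin gene Acta1 by 0.61 (adjusted p = 3.32e-05), while Myh2 entered the test through its knockout arrays alone. Of 4 tested adipocyte markers 2 were lower and none higher, with Fabp4 at -0.26 (adjusted p = 0.000839). Of 4 tested T and B cell markers 1 was higher and 1 lower. Ms4a1, a B cell gene, was well above background on all 3 knockout arrays and no hetero array, so the filter fixed its direction, and Cd3e, a T cell receptor subunit, was at -0.56 (adjusted p = 0.00109). The part of these markers in the Hox values was not tested.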
